A study of Mus musculus with 4 samples.

Results

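Transcripts of 9 receptors that hold blood progenitors in the marrow or guide their exit from it were examined in LSK cells of aged mice. LSK cells are marrow cells that lack lineage markers and carry Sca1 and Kit, a fraction that contains the stem cells and earliest multipotent progenitors. The receptors were chosen by name for their role, with earlier results of these data known, and no measured value enters the rule: Cxcr4, S1pr1, Itga4, Itgb1, Itgal, Itgb2, Cd44, Vcam1 and Cd47. All 9 had a row among the 24421 genes of the deposited count table, and all 9 passed the filter on low counts that left 13296 genes for testing. The cells came from mice aged 13 to 15 months of 2 genotypes, wild type (WT) and p53R248W/+, which carry 1 copy of a missense allele of the tumour suppressor p53, and there were 2 libraries per genotype, called the WT pair and the mutant pair below. No treatment is given in the labels, nor how the allele was introduced, nor whether the 2 libraries of a genotype are separate animals. The p-values and SEs below therefore rest on a spread between libraries that may be technical. The test estimates that spread partly from other genes, so a p or SE does not measure the gene's own library spread alone.

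Retention of stem and progenitor cells in marrow rests on chemokine attraction and on adhesion. CXCR4 responds to CXCL12 made by stromal cells, the integrins VLA-4 (alpha chain Itga4, beta chain Itgb1) and LFA-1 (Itgal with Itgb2) bind VCAM-1 and the ICAMs, and CD44 binds hyaluronan and selectins. S1PR1 senses sphingosine-1-phosphate, which is abundant in blood, and so favours exit, while CD47 signals to the SIRP alpha receptor of phagocytes and protects the cell that carries it from engulfment. Loss of function of CXCR4 or VLA-4 releases progenitors into blood, which is the basis of clinical mobilisation.

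Start-site sequences are shown for 3 receptors, to let the levels reported below be read beside the promoter that each gene has in the reference. RefSeq promoter windows (GRCm38.p6, the assembly of mm10; 250 bases before to 50 bases after the annotated start) were matched for 5 of the 9 receptors: Cxcr4, Itga4, Itgb1, Cd44 and Cd47. Cd47 and Cd44 are the most and the least CpG-rich of the 5, and Cxcr4 has the lowest transcript level per length of the 5. The windows are chr16:49855404-49855703 on the plus strand for Cd47, chr1:128592250-128592549 on the minus strand for Cxcr4 and chr2:102901616-102901915 on the minus strand for Cd44. Capitals mark GGGCGG, the GC box bound by Sp family factors, or its reverse complement CCGCCC.
Cd47: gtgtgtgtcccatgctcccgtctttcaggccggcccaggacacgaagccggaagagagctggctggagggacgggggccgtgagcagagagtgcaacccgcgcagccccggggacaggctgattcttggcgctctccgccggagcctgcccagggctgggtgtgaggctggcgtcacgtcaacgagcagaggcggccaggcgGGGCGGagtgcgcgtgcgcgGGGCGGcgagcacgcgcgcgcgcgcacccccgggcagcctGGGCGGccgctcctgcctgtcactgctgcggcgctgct
Cxcr4: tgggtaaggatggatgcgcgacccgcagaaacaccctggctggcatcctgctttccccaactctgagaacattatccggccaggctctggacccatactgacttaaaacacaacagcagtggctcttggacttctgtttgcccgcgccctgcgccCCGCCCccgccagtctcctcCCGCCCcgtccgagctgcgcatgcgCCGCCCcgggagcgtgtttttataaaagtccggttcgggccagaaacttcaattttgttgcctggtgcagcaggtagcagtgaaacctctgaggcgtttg
Cd44: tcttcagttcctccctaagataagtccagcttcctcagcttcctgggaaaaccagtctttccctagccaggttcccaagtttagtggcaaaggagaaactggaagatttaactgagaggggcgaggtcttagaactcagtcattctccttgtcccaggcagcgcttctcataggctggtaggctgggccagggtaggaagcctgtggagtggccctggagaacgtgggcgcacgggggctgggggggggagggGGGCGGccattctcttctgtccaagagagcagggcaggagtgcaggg

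The Cd47 window had 35 CpG dinucleotides and 74.0% G+C, and 6.95% of the 32851 RefSeq windows had at least as many CpGs. The Cxcr4 window had 20 CpGs and 59.3% G+C, and the Cd44 window had 6 CpGs and 58.0% G+C, against medians of 7 CpGs and 52.7% over all windows. GGGCGG, searched on both strands, was found 3 times in the Cd47 window, 3 times in the Cxcr4 window and 1 time in each of the other 3. All 5 windows held it, and 35.7% of all windows did. CACCC, the core of sites for Krüppel-like factors, was in 4 of the 5 windows (all but Cd44) and in 57.5% of all windows. The E-box CANNTG was in the Itga4 window alone, against 72.3% of all windows. The forkhead motif TGTTTAC (3.65% of all windows) and the AP-1 motif TGAGTCA (5.2%, TGACTCA being the same site read on the other strand) were in none of the 5. These matches describe letters and do not show binding.

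Counted reads per library ranged from 12111126 to 14820759, of which 25495 to 29367 fell on the 9 receptors. Levels are given as CPM, in which each library is brought to the same total after TMM correction, and 3 counts, the detection floor used here, correspond to 0.202 to 0.248 CPM. The sort was checked against 10 LSK markers fixed for it, all of which were detected, with summed levels of 3645 and 3981 CPM in the WT pair and of 4666 and 4339 CPM in the mutant pair. Kit stood at 911 and 998 CPM in the WT pair against 1182 and 1105 CPM in the mutant pair. The column heading of WT replicate 1 ends in RLT and those of the other 3 libraries in RLTbuffer. The labels do not explain these endings or say whether the handling differed.

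Because CD44, LFA-1 and VCAM-1 are also carried by mature blood, endothelial and stromal cells, markers of those cells were summed in each library. Macrophage and monocyte markers (all 10 matched) ranged from 225 to 297 CPM in WT and from 238 to 284 CPM in p53R248W/+. Lyz2, which early myeloid progenitors express too, made up most of this sum, and the macrophage genes C1qa, C1qb, C1qc and Siglec1 were at no more than 0.421 CPM in any library. The erythroid genes Hbb-bt, Hbb-bs and Hba-a1 were listed at 0 in all 4 libraries. How multi-mapped reads were counted is not stated, so these zeros do not show absence of erythroid RNA. The T cell gene Cd3g, the cytotoxic gene Gzma and the B cell gene Pax5 were also at 0 throughout. So were the platelet receptor Gp6 and the stromal chemokine Cxcl12. Some other members of these lists were detected in every library. Klrb1c (T and NK) was at 43.6 to 58.1 CPM and Jchain (B and plasma) at 42.6 to 78.4. Pdgfrb (stromal) was at 20.9 to 45.6 CPM and Alas2 (erythroid) at 7.15 to 13.1. Lepr, Adgre1 and Cdh5 had 84, 86 and 27 counts in p53R248W/+ replicate 1 and 0 to 4 in each other library. Neutrophil markers (7 of 8 matched) summed to 4.25 and 29.8 CPM in WT and to 34.5 and 30.6 CPM in p53R248W/+, so WT replicate 1 was low. Endothelial markers (all 7) summed to 120 to 122 CPM in WT and 126 to 137 CPM in p53R248W/+, mostly Tie1, and stromal markers (all 6) to 38.9 to 50.1 and 39.8 to 85.7 CPM. T and NK cell markers (all 9) ranged from 73.3 to 86.3 and from 79.5 to 90.0 CPM, B and plasma cell markers (all 8) from 52.96 to 65.3 and from 63.7 to 106 CPM, and erythroid markers (all 6) from 7.86 to 10.3 and from 13.1 to 13.4 CPM. In bulk samples such as these, fewer cells of a type and less RNA per cell cannot be told apart.

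The comparison of genotypes asks whether aged progenitors with mutant p53 carry different amounts of these receptor transcripts. None of the 9 passed an adjusted p of 0.05 in edgeR's quasi-likelihood test, the background being 0% of the 13296 genes. At an unadjusted p under 0.05, 1 receptor (S1pr1) was lower, where 2.86% of all genes were, and 0 were higher, where 3.01% of all genes were. Log2 fold changes of p53R248W/+ over WT were above 0 for 6 receptors and below 0 for 3, with a median of 0.09, beside a median of -8.8e-05 over all genes. For the 4 most precisely measured receptors the 95% intervals of the fold were narrow: 0.896 to 1.37 for Itga4, 0.902 to 1.42 for Cd47, 0.711 to 1.24 for Itgb1 and 0.805 to 1.40 for Cd44. Differences of that size or smaller could not be resolved with 2 libraries per genotype, and a p that misses the threshold does not show equal levels.

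**Figure D1:**
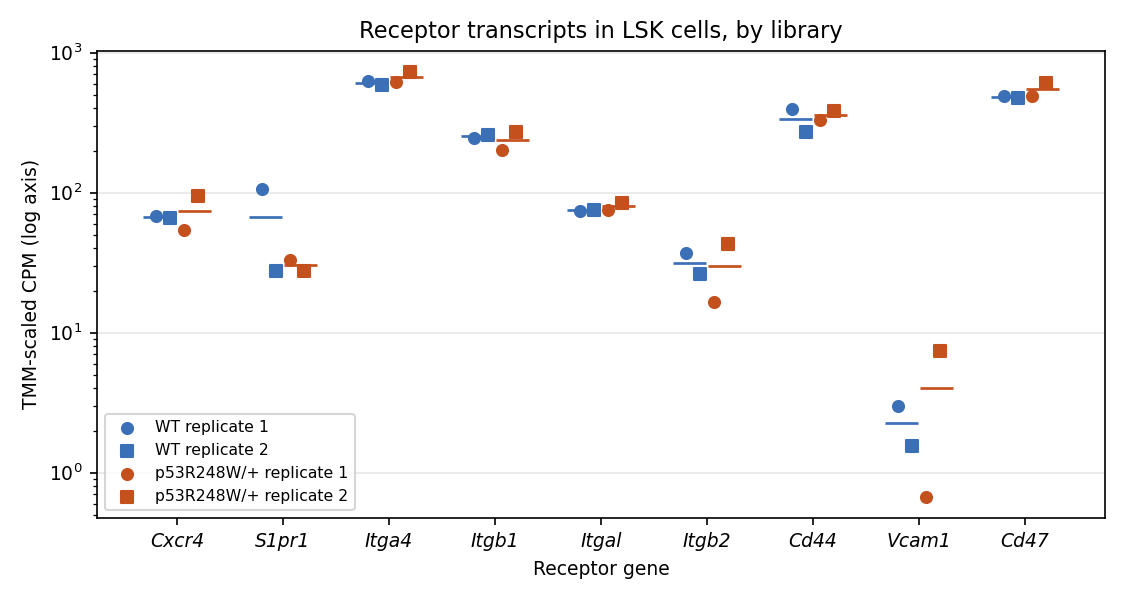
TMM-scaled CPM on a log axis for the 9 receptor genes, with 1 point per library (blue WT, orange p53R248W/+) and a short line at each genotype's mean of 2 libraries. The genotypes overlap for all receptors but Itgal, S1pr1 is set apart by WT replicate 1 alone at 107 CPM, and the widest spread is that of Vcam1 in p53R248W/+.

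Cxcr4 (chromosome 1, 128588199 to 128592299, minus strand, 2 exon blocks; all gene positions are mm10, from the deposited table), the CXCL12 receptor and main retention signal, was at 68.1 and 66.0 CPM in the WT pair against 54.3 and 94.5 CPM in the mutant pair. The WT pair lay between the p53R248W/+ values, so the genotypes overlapped. The log2 fold change was 0.13 ± 0.31 (SE, n = 2 libraries per genotype; edgeR quasi-likelihood test, adjusted p = 0.970). WT libraries differed 1.03-fold and p53R248W/+ libraries 1.74-fold, and without p53R248W/+ replicate 2 the log2 fold change was -0.31.

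S1pr1 (chromosome 3, 115710433 to 115715055, minus strand, 2 exon blocks), the receptor that draws cells toward sphingosine-1-phosphate in blood, was at 107 and 27.4 CPM in the WT pair against 32.9 and 27.7 CPM in the mutant pair. Only WT replicate 1 was high, and the other WT library lay below both p53R248W/+ libraries. The log2 fold change was -1.14 ± 0.50 (SE), a 2.20-fold lower level, with an unadjusted p of 0.0394 and an adjusted p of 0.824 in edgeR's quasi-likelihood test. With WT replicate 1 left out the log2 fold change became 0.15, and with WT replicate 2 left out -1.80. Counting error was small beside this gap: the 1528 counts of WT replicate 1 have an exact Poisson 95% interval of 1452 to 1607, and the 391 counts of WT replicate 2 one of 353.2 to 431.7, intervals that cover counting error only. The WT libraries differed 3.89-fold, and 3.19% of the 10717 genes with a mean of at least 5 CPM differed at least as much between them, where the median gene differed 1.29-fold.

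The 2 chains of the VLA-4 integrin, which binds VCAM-1 and fibronectin, were abundant in every library. Itga4 (chromosome 2, 79255426 to 79333114, plus strand, 28 exon blocks), its alpha chain, was at 626 and 584 CPM in the WT pair against 613 and 728 CPM in the mutant pair. The first p53R248W/+ library lay between the WT libraries and the second above them. The log2 fold change was 0.15 ± 0.15 (SE; edgeR quasi-likelihood test, adjusted p = 0.905). Itga4 shares 166 exon bases with Cerkl on the opposite strand, and whether counting used strand is not stated, so reads there cannot be assigned to one gene with certainty. Itgb1 (chromosome 8, 128685654 to 128733579, plus strand, 16 exon blocks), the beta chain that VLA-4 shares with many other integrins, was at 246 and 259 CPM in the WT pair against 203 and 274 CPM in the mutant pair. Its p53R248W/+ libraries lay on either side of the WT pair, with a log2 fold change of -0.09 ± 0.19 (SE; edgeR quasi-likelihood test, adjusted p = 0.966).

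LFA-1, the leukocyte integrin that binds the ICAMs, gave 1 steady and 1 variable chain. Itgal (chromosome 7, 127296260 to 127335137, plus strand, 31 exon blocks), the alpha chain, was at 73.9 and 75.3 CPM in the WT pair against 75.4 and 84.4 CPM in the mutant pair. It was the single receptor of the 9 whose genotypes did not overlap, higher in p53R248W/+ as were 16.9% of all tested genes, and the gap between the nearest libraries, 75.33 against 75.41 CPM, closed when the libraries were scaled by median ratios or when no filter was applied. No receptor was lower in p53R248W/+ without overlap, where 16.6% of all tested genes were. The log2 fold change of Itgal was 0.09 ± 0.27 (SE; edgeR quasi-likelihood test, adjusted p = 0.973). Itgb2 (chromosome 10, 77530348 to 77565674, plus strand, 16 exon blocks), the beta chain common to all leukocyte-restricted beta-2 integrins, was at 36.9 and 26.2 CPM in the WT pair against 16.6 and 43.2 CPM in the mutant pair. The p53R248W/+ libraries held both the lowest and the highest value and differed 2.60-fold, a spread matched or exceeded by 7.16% of genes, and the log2 fold change was -0.13 ± 0.46 (SE; edgeR quasi-likelihood test, adjusted p = 0.982). Markers of macrophages and monocytes, which carry beta-2 integrins, did not order these 2 libraries in one way. Cd68 was at 7.42 and 49.6 CPM in the mutant pair, with Itgb2, while Lyz2 was at 226 and 153 CPM, Csf1r at 23.9 and 9.33 CPM and the summed list of 10 at 284 and 238 CPM. Their part in the Itgb2 values was not tested.

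Cd44 (chromosome 2, 102811142 to 102901665, minus strand, 19 exon blocks), the hyaluronan receptor, was at 399 and 272 CPM in the WT pair against 329 and 383 CPM in the mutant pair. The WT libraries enclosed both p53R248W/+ libraries, and the log2 fold change was 0.09 ± 0.19 (SE; edgeR quasi-likelihood test, adjusted p = 0.967). Its sign followed the library left out: 0.39 without WT replicate 1 and -0.16 without WT replicate 2. The counts are per gene and do not separate the splice variants of Cd44.

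Vcam1 (chromosome 3, 116110020 to 116129688, minus strand, 9 exon blocks) encodes the VLA-4 ligand of marrow stroma, endothelium and macrophages, which stem cells can also carry. It was near the lower limit of the measurement, with 43 and 22 counts in WT and 10 and 89 counts in p53R248W/+. In CPM these were 2.999 and 1.54 against 0.674 and 7.35, so the p53R248W/+ libraries held both extremes and differed 10.9-fold. The log2 fold change of 0.70 ± 1.08 (SE) had a 95% interval from -1.58 to 2.97 (edgeR quasi-likelihood test, adjusted p = 0.948). With limma-voom it was -0.10, and leaving out p53R248W/+ replicate 1 or 2 gave 1.69 or -1.74, so no direction can be given.

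Cd47 (chromosome 16, 49855654 to 49911683, plus strand, 10 exon blocks), the signal against engulfment, was at 489 and 476 CPM in the WT pair against 488 and 606 CPM in the mutant pair. Of these libraries 3 were nearly level and p53R248W/+ replicate 2 was high. The log2 fold change was 0.18 ± 0.16 (SE; edgeR quasi-likelihood test, adjusted p = 0.892), and it was 0.01 without p53R248W/+ replicate 2. Cd47, Itga4 and Itgal were the receptors whose log2 fold change stayed above 0 whichever library was left out. Without p53R248W/+ replicate 2, however, it was only 0.02 for Itga4 and 0.01 for Itgal.

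**Figure D2:**
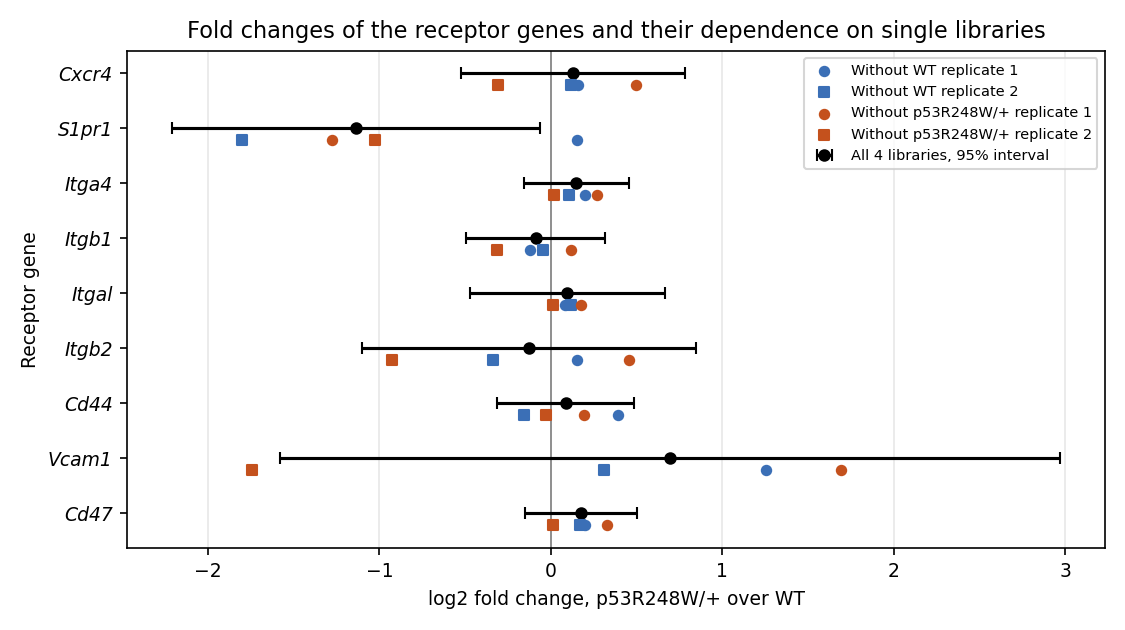
Log2 fold change of p53R248W/+ over WT for each receptor gene, with all 4 libraries (black, bar: 95% interval) and with each library left out in turn (coloured points). The interval of S1pr1 alone excludes 0, and the S1pr1 value without WT replicate 1, 0.15, lies on the other side of 0.

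A single library stood out across the receptors. p53R248W/+ replicate 2 had the highest CPM of the 4 libraries for 7 of the 9 (all but S1pr1 and Cd44, which were highest in WT replicate 1) and the lowest for 0, while 22.1% of all tested genes were highest in it. The lowest library was WT replicate 2 for 4 receptors, p53R248W/+ replicate 1 for 4 and WT replicate 1 for 1. Without p53R248W/+ replicate 2 the median log2 fold change of the receptors was -0.31, and without p53R248W/+ replicate 1 it was 0.27. Of the 10 LSK markers, 4 (Flt3, Cd34, Procr and Hlf) were highest and 3 (Slamf1, Meis1 and Mecom) lowest in the same library, so stem cell markers lay on both sides. Flt3, a receptor of multipotent progenitors, was at 117 and 106 CPM in the WT pair against 106 and 219 CPM in the mutant pair. Slamf1, a marker of long-term stem cells, was at 75.7 and 67.4 CPM in the WT pair against 66.8 and 40.2 CPM in the mutant pair. Procr and Hlf, also stem cell markers, were at 73.2 and 1265 CPM in that library, above the 51.0 to 70.5 and 929 to 1197 CPM of the other 3. Cd34 was at 215 and 143 CPM in the WT pair against 165 and 226 CPM in the mutant pair. The part of the LSK make-up in the receptor values was not tested.

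Levels of different receptors were compared per exon length, as RPKM (the CPM value per kilobase of exon, with the same TMM scaling). Cd47 had the highest mean level, 269 RPKM (249 to 316 over 4 libraries), above every other receptor in all 4 libraries. Itga4 at 64.9 RPKM (59.4 to 74.1), Cd44 at 61.2 (48.1 to 70.5) and Itgb1 at 58.5 (48.4 to 65.2) followed, and these 3 neighbours overlapped in range. Cxcr4 was next at 39.0 RPKM (29.9 to 52.1), below Itgb1 in 4 of 4 libraries although the ranges over libraries overlapped. S1pr1 at 16.1 RPKM (9.05 to 35.2), Itgal at 14.8 (14.1 to 16.2) and Itgb2 at 10.7 (5.80 to 15.1) overlapped, and S1pr1 exceeded Itgal in 1 library, WT replicate 1. Vcam1 was last at 0.925 RPKM (0.198 to 2.16), below Itgb2 in every library. Ranges of neighbours did not overlap at the top of this order, between Cd47 and Itga4, and at the bottom, between Itgb2 and Vcam1.

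The chains of each integrin were also compared per length. The Itga4 to Itgb1 ratio of RPKM was 1.08 and 0.964 in WT and 1.29 and 1.14 in p53R248W/+. Both p53R248W/+ ratios lay above both WT ratios, by a gap smaller than the spread within either genotype, and no test was made of this ratio. The Itgal to Itgb2 ratio was 1.10 and 1.58 in WT and 2.49 and 1.07 in p53R248W/+, which overlapped, and its spread came from Itgb2. Transcript ratios do not give the amounts of assembled dimer, and Itgb1 pairs with other alpha chains as well.

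**Figure D3:**
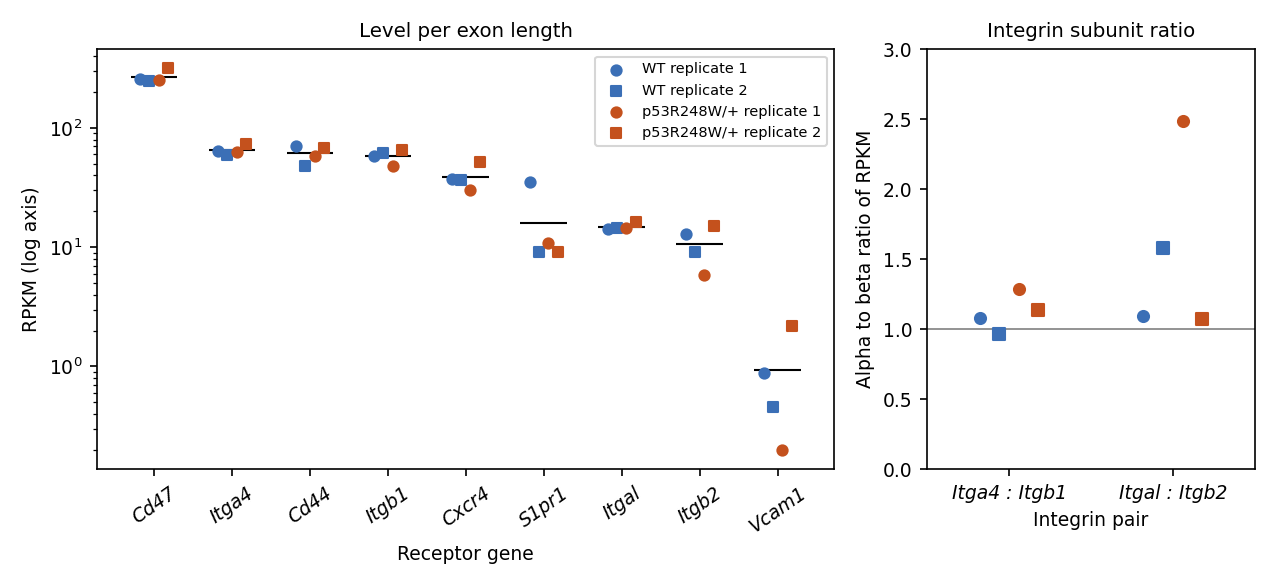
Left, RPKM on a log axis for the 9 receptor genes in falling order of the mean (line), with 1 point per library; right, the ratio of alpha to beta chain RPKM for VLA-4 and LFA-1, with a line at equal levels. Cd47 is highest and Vcam1 lowest in all 4 libraries, and the Itga4 to Itgb1 ratio stays between 0.964 and 1.29.

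The genes around these receptors were taken as 11 lists of ligands, relatives and signalling partners, 175 genes in all. All 175 were matched, 154 passed the filter, and 0 passed an adjusted p of 0.05 in edgeR's quasi-likelihood test, as for the receptors. Log2 fold changes were above 0 for 74 and below 0 for 80, with a median of -0.04. At an unadjusted p under 0.05, 4 (2.6%) were higher and 6 (3.9%) lower in p53R248W/+, beside 3.01% and 2.86% of all tested genes. Genotypes did not overlap for 28 higher (18.2%) and 29 lower (18.8%) genes, beside 16.9% and 16.6% of all tested genes, so the shares were near the background. Most genes named below were picked because their genotypes did not overlap, so for them the lack of overlap is the choice and not a result. The smallest adjusted p over all genes was 0.824 in edgeR's quasi-likelihood test, and no adjusted p of a gene named below was smaller in it.

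Of the 12 ligand and counter-receptor genes, 9 passed the filter and Cxcl12, Madcam1 and Has2 did not. Cxcl12, the CXCR4 ligand, had 0 counts in all 4 libraries, and its second receptor Ackr3 had 1 count in 1 library. The 9 genes that passed had log2 fold changes above 0 (median 0.24), but 0 of them reached an unadjusted p of 0.05 and Icam2 alone did not overlap. Icam2, an LFA-1 ligand, was at 26.4 and 24.3 CPM in the WT pair against 28.4 and 30.7 CPM in the mutant pair (log2 fold change 0.22 ± 0.42, SE). Icam1, the main LFA-1 ligand, was at 62.8 and 40.7 CPM in the WT pair against 63.2 and 45.4 CPM in the mutant pair, an overlap. Sirpa, the receptor that reads CD47, was at 40.7 and 23.6 CPM in the WT pair against 31.7 and 45.3 CPM in the mutant pair, an overlap too.

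On the sphingosine-1-phosphate side, 7 of 8 genes were tested, 4 with log2 fold changes above 0 and 3 below. Sgpl1, the lyase that breaks the lipid down, was at 33.5 and 26.0 CPM in the WT pair against 61.8 and 45.4 CPM in the mutant pair (log2 fold change 0.86 ± 0.37, SE; unadjusted p = 0.0303). Its libraries did not overlap, and this was the 1 gene of the list at an unadjusted p under 0.05. The phosphatase gene Sgpp1 was at 144 and 146 CPM in the WT pair against 178 and 149 CPM in the mutant pair, and the exporter gene Spns2 at 299 and 252 CPM in the WT pair against 246 and 211 CPM in the mutant pair. Neither Sgpp1 (log2 fold change 0.18 ± 0.21, SE) nor Spns2 (-0.27 ± 0.18, SE) overlapped between genotypes, and neither had an unadjusted p under 0.05. Klf2, a factor known to drive S1pr1 transcription in lymphocytes, was at 57.7 and 67.5 CPM in the WT pair against 44.6 and 45.8 CPM in the mutant pair (log2 fold change -0.47 ± 0.32, SE; unadjusted p = 0.155). Cd69, whose product pulls S1PR1 off the cell surface, was at 53.004 and 23.7 CPM in the WT pair against 18.5 and 36.8 CPM in the mutant pair, an overlap. The part of Klf2 and Cd69 in the S1pr1 values was not tested.

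Other integrin chains gave the smallest unadjusted p-values of the 11 lists. Of 22 genes 15 were tested, 7 with log2 fold changes above 0 and 8 below (median -0.17), and 1 was higher and 3 were lower at an unadjusted p under 0.05. Itgb3, the beta-3 chain found on platelets and stem cells, was at 480 and 423 CPM in the WT pair against 320 and 253 CPM in the mutant pair (log2 fold change -0.65 ± 0.17, SE; unadjusted p = 0.00131). Its partner Itga2b, the CD41 chain, was at 84.5 and 65.1 CPM in the WT pair against 33.7 and 27.8 CPM in the mutant pair (log2 fold change -1.27 ± 0.34, SE; unadjusted p = 0.00147). Both genes of this pair were lower in each p53R248W/+ library than in each WT library. With DESeq2, run as an alternative, the adjusted p was 0.0778 for Itga2b and 0.190 for Itgb3, and over all alternatives it ranged from 0.0778 to 0.999 and from 0.190 to 0.999. Megakaryocyte markers, a list of 6 with Itga2b in it, summed to 103 and 110 CPM in the WT pair and to 57.1 and 46.2 CPM in the mutant pair. Without Itga2b the other 5 summed to 18.3 and 44.8 CPM against 23.3 and 18.4 CPM, which overlapped. Single genes of the 5 differed in this. Pf4 was at 7.46 and 23.6 CPM in the WT pair against 3.37 and 5.12 CPM in the mutant pair, without overlap. Ppbp, Gp9 and Gp1bb overlapped between genotypes, and Gp6 had 0 counts in every library. The part of megakaryocyte-primed cells in these values was not tested.

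The alternative partners of the VLA-4 chains named here, Itgb7 and Itga5, were on opposite sides. Other alpha chains of the list had log2 fold changes of either sign, such as 0.69 for Itga2 and -0.50 for Itga3. Itgb7, which pairs with the Itga4 product to bind MAdCAM-1, was at 14.9 and 9.68 CPM in the WT pair against 28.1 and 23.1 CPM in the mutant pair (log2 fold change 1.07 ± 0.51, SE; unadjusted p = 0.0495). Itga5, which pairs with the Itgb1 product as the fibronectin receptor, was at 113 and 85.6 CPM in the WT pair against 77.4 and 51.4 CPM in the mutant pair (log2 fold change -0.61 ± 0.29, SE; unadjusted p = 0.0497). Neither gene overlapped between genotypes, and both unadjusted p-values lay just under 0.05.

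Of 25 tested integrin activation genes, 10 had log2 fold changes above 0 and 15 below (median -0.05). Tln1, encoding talin, was at 617 and 612 CPM in the WT pair against 559 and 573 CPM in the mutant pair. Fermt3, encoding kindlin-3, was at 162 and 163 CPM in the WT pair against 175 and 174 CPM in the mutant pair, and shares 89 exon bases with Trpt1 on the opposite strand. Both were tight within a genotype and did not overlap, with log2 fold changes of -0.12 ± 0.14 and 0.10 ± 0.20 (SE). The GTPase gene Rap1b was at 283 and 380 CPM in the WT pair against 225 and 260 CPM in the mutant pair (log2 fold change -0.45 ± 0.19, SE; unadjusted p = 0.0271), and was the 1 gene of the list at an unadjusted p under 0.05. Its close relative Rap1a was at 241 and 232 CPM in the WT pair against 298 and 266 CPM in the mutant pair (0.26 ± 0.18, SE), and the share of reads that match both genes is unknown here. Rasgrp2, the exchange factor for these GTPases, was at 31.5 and 24.8 CPM in the WT pair against 35.2 and 41.2 CPM in the mutant pair, and Sharpin, an inhibitor of integrin activation, at 20.2 and 16.3 CPM in the WT pair against 31.0 and 26.3 CPM in the mutant pair.

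Signal transduction behind the chemokine receptors had 14 tested genes with log2 fold changes above 0 and 12 below (median 0.02), and 0 at an unadjusted p under 0.05. Rgs18, a brake on G protein signalling, was at 114 and 136 CPM in the WT pair against 198 and 141 CPM in the mutant pair (log2 fold change 0.45 ± 0.23, SE). Rgs1, a related brake on chemokine responses, was at 397 and 234 CPM in the WT pair against 291 and 256 CPM in the mutant pair, with WT replicate 1 highest and the genotypes overlapping. The GTPase gene Cdc42 was at 422 and 440 CPM in the WT pair against 393 and 342 CPM in the mutant pair, and its activator Vav3 at 106 and 81.9 CPM in the WT pair against 74.3 and 73.8 CPM in the mutant pair. Cdc42 (log2 fold change -0.23 ± 0.16, SE) and Vav3 (-0.34 ± 0.27, SE) did not overlap between genotypes.

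Among 16 tested homing and retention receptors outside the 9, 6 had log2 fold changes above 0 and 10 below (median -0.22). Gpr183, which responds to oxysterols, was at 55.0 and 47.2 CPM in the WT pair against 30.8 and 29.4 CPM in the mutant pair (log2 fold change -0.76 ± 0.36, SE; unadjusted p = 0.0491). S1pr4, a blood cell relative of S1pr1, was at 23.3 and 26.9 CPM in the WT pair against 15.5 and 13.8 CPM in the mutant pair (log2 fold change -0.77 ± 0.48, SE). For S1pr4 both WT libraries were alike and above both p53R248W/+ libraries, which was not so for S1pr1. Ccr9, a chemokine receptor of lymphoid progenitors, was at 8.23 and 4.28 CPM in the WT pair against 8.57 and 9.91 CPM in the mutant pair. Ccr7, the lymph node homing receptor, named after its values were seen, had 1 and 20 counts in WT and 168 and 65 counts in p53R248W/+ (unadjusted p = 0.00631), the 1 gene of the list higher at an unadjusted p under 0.05.

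Selectins, their ligands and junction molecules had 10 tested genes with log2 fold changes above 0 and 18 below (median -0.14). Pecam1, a homophilic adhesion molecule of endothelium and stem cells, was at 70.4 and 50.7 CPM in the WT pair against 105 and 100 CPM in the mutant pair (log2 fold change 0.76 ± 0.28, SE; unadjusted p = 0.0132). St3gal4, a sialyltransferase for selectin ligands, was at 32.8 and 19.4 CPM in the WT pair against 12.7 and 12.9 CPM in the mutant pair (log2 fold change -1.03 ± 0.51, SE), and shares 83 exon bases with 4930581F22Rik on the opposite strand. The tetraspanin gene Cd151, whose product associates with integrins, was at 37.5 and 32.5 CPM in the WT pair against 21.0 and 22.5 CPM in the mutant pair (log2 fold change -0.69 ± 0.42, SE).

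Of the 6 genes that link CD44 to actin or bind hyaluronan, 2 had log2 fold changes above 0 and 4 below, and Ezr, encoding the linker ezrin, was at 90.0 and 98.0 CPM in the WT pair against 45.7 and 81.0 CPM in the mutant pair (log2 fold change -0.59 ± 0.30, SE). Of 7 genes of CD47 and clearance signalling, 4 were above 0 and 3 below. Calr encodes calreticulin, a chaperone that on the cell surface promotes engulfment and is opposed by CD47. Calr was at 430 and 299 CPM in the WT pair against 274 and 212 CPM in the mutant pair (log2 fold change -0.58 ± 0.20, SE; unadjusted p = 0.00942). B2m, the light chain of MHC class I, was at 2968 and 3780 CPM in the WT pair against 3859 and 4025 CPM in the mutant pair, and Cd274, encoding PD-L1, at 152 and 173 CPM in the WT pair against 114 and 139 CPM in the mutant pair. Calr was the 1 gene of the 7 at an unadjusted p under 0.05.

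Of 12 tested proteases and inhibitors active in mobilisation, 8 had log2 fold changes above 0 and 4 below (median 0.19), with 0 at an unadjusted p under 0.05. Dpp4 encodes the CD26 peptidase, which inactivates CXCL12. It was at 35.4 and 33.4 CPM in the WT pair against 35.5 and 58.2 CPM in the mutant pair. Dpp4 was highest in p53R248W/+ replicate 2, as were Cxcr4 and 22.1% of all tested genes. The inhibitor gene Timp2 was at 38.0 and 42.4 CPM in the WT pair against 69.9 and 54.3 CPM in the mutant pair (log2 fold change 0.64 ± 0.33, SE), and its target Mmp2 at 6.56 and 6.24 CPM in the WT pair against 4.45 and 5.45 CPM in the mutant pair. Of the 4 transcription factors upstream of these receptors, 1 was above 0 and 3 below. Gfi1, a repressor that restrains Cxcr4 in myeloid cells, was at 17.6 and 15.2 CPM in the WT pair against 4.79 and 10.9 CPM in the mutant pair (log2 fold change -1.11 ± 0.63, SE). Foxo1, which controls Klf2 in lymphocytes, was at 171 and 173 CPM in the WT pair against 164 and 145 CPM in the mutant pair.

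**Figure D4:**
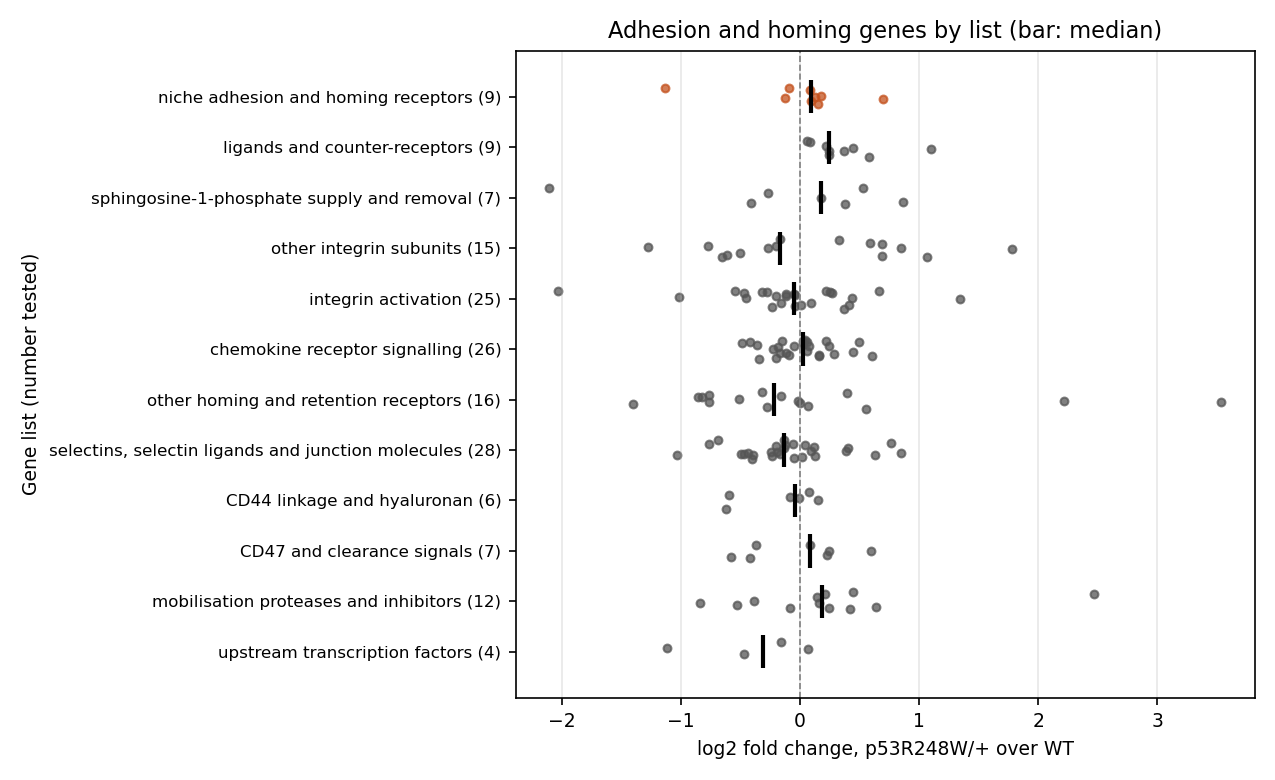
Log2 fold change of p53R248W/+ over WT for each tested gene of the 9 receptors (orange) and of the 11 surrounding lists (grey), with the median of each list as a bar. The medians lie between -0.31 (4 transcription factors) and 0.24 (ligands and counter-receptors), and no gene passed an adjusted p of 0.05 in edgeR's quasi-likelihood test.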

How the data were processed

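Messenger RNA was sequenced from LSK cells in 2 WT and 2 p53R248W/+ libraries of 12111126 to 14820759 counted reads. The authors deposited raw read counts per gene. The submitters' processing notes name FastQC 0.11.5, STAR 2.7.10a, featureCounts of Subread 2.0.3 and edgeR 3.40.2, with mm10. Whether these versions made the deposited counts was not checked. Strand and multi-mapped reads are not given in the sources used here, so overlapping genes are uncertain. Columns were assigned to samples through the genotype and number in their names.

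Genes were filtered with filterByExpr (minimum count 10, total 15), scaled by TMM and tested in edgeR 4.0.16 under R 4.3.3 (glmQLFit, robust=TRUE, then glmQLFTest) on genotype alone. Benjamini-Hochberg adjustment ran over 13296 genes. The SE of a log2 fold change was its absolute value divided by the square root of the test's F statistic. Dispersions behind that statistic were shared in part over genes. The biological coefficient of variation was 46.0%. RPKM used the table's exon lengths. The method was also run on simulated counts with planted fold changes. Their dispersions came from the trend over genes, without gene-specific spread, and the outcome is not reported here.

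The members and lists were chosen with earlier results of these data known. Named genes were the receptors, up to 3 genes per list (mean of at least 5 CPM, no overlap between genotypes, in order of p), and partners named whatever their values, of which 1 is not reported here; Ccr7 was added after its values were seen. Plpp1, Plpp3 and Grk2 were matched through older symbols, and the neutrophil marker Ly6g was not analysed here. Protein sequences were not used here. Libraries with the same replicate number did not deviate together (r = -0.0074 across 13296 genes, which are not independent replicates), so the numbers were not treated as pairs. Alternatives were median-ratio and total-count scaling, DESeq2 1.42.0, limma-voom (limma 3.58.1), 2 other filters, a replicate block and each library left out, and, added after the data were seen, edgeR's legacy quasi-likelihood method.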

Additional observations from a re-analysis of the deposited data

How the results depend on the processing

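No receptor gene was called under any alternative run, and the adjusted p-values of the receptors ranged from 0.516 (S1pr1) upward over them. Over all genes, 0 were called except for 6 with DESeq2 and, with each library left out in turn, 0 to 1. The count of receptors without overlap between genotypes was 0 with median-ratio scaling, 0 with no filter and 3 to 7 with a library left out, where 3 values in place of 4 overlap less by construction. With the replicate block the median log2 fold change of the receptors was 0.10, 0 genes were called and no call changed. Signs turned with limma-voom for Vcam1 (-0.10). Leaving out each library in turn turned the sign of S1pr1 (-1.80 to 0.15), Itgb2 (-0.93 to 0.45), Cxcr4 (-0.31 to 0.49), Itgb1 (-0.32 to 0.12), Cd44 (-0.16 to 0.39), Vcam1 (-1.74 to 1.69), Cd69 (-1.05 to 0.19), Rgs1 (-0.53 to 0.23), Icam1 (-0.19 to 0.43) and Sirpa (-0.089 to 0.69); the cause was not tested. The sign of the median log2 fold change turned under at least 1 alternative for 9 of the 12 lists, receptors included, and stayed for ligands (0.04 to 0.40), CD44 linkage (-0.44 to -0.00081) and transcription factors (-0.37 to -0.24). It ranged from -0.31 to 0.27 for the receptors, -0.23 to 0.37 for other integrin chains, -0.33 to 0.11 for other homing receptors, -0.14 to 0.11 for selectins and junction molecules, -0.16 to 0.36 for proteases and -0.17 to 0.18 for sphingosine-1-phosphate genes. The remaining 3 lists stayed within -0.11 to 0.16. The stricter filter dropped Vcam1 and Ccr7, so it gave them no value. With 1 library left in a genotype, that library is assumed to vary like the other genotype's pair. Levels per length as TPM, on another scale (means of 824 for Cd47 and 199 for Itga4), gave the same order of the 9 receptors.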
